A study of Mus musculus with 82 samples.

Results

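The 9 genes described here encode the subunits of ChAHP, their closest relatives, the HP1 proteins and the HP1-binding protein Pogz. They are Adnp, Adnp2, Chd3, Chd4, Chd5, Cbx1, Cbx3, Cbx5 and Pogz. They were chosen by symbol on GRCm38 (mm10), and all 9 were found among 21523 protein-coding genes. The question was whether the peaks of the complex lie at the genes that encode it. The cells were mouse embryonic stem cells with the genetic background hybrid 129-C57BL/6, kept in 2i medium with LIF, and the labels describe 82 libraries in 32 groups. The first peak list holds 15026 Adnp peaks from 3 ChIP-seq replicates in wild-type cells that carry an Adnp gene with a FlagAvi tag. The second holds 2047 HP1γ peaks that lack the Adnp motif, from 3 replicates in Adnp knockout cells and 3 in wild-type cells, where Cbx3 carries the FlagAvi tag in both. FlagAvi proteins can be biotinylated and were captured on streptavidin beads. Each list is pooled over its replicates, so replicate error cannot be given, and read depth is unknown. The genotype labels do not say where in the genome a tag was placed, and its part in peaks at Adnp or Cbx3 was not tested. RNA-seq and ATAC-seq libraries of the series were not analysed here, so levels of these genes are not given.

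ChAHP joins Adnp, a DNA-binding protein with zinc fingers and a homeodomain, to the chromatin remodelling helicase Chd4 and to HP1 proteins. HP1 proteins bind methylated lysine 9 of histone H3 through a chromodomain and bind partner proteins through a chromoshadow domain. Adnp gives them a second route to the genome that follows DNA sequence. Chd4 is also the helicase of the NuRD complex. Adnp2 is the paralogue of Adnp. Chd3 and Chd5 are the paralogues of Chd4. Cbx5, Cbx1 and Cbx3 encode HP1α, HP1β and HP1γ. Pogz encodes a zinc finger protein that binds HP1.

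The start of Adnp was the single place where an Adnp peak touched a promoter window of these genes. A promoter window here is the 250 bases before and 50 bases after an annotated start site, from a RefSeq table for GRCm38.p6 that covers 27025 genes. It holds 11 windows for 7 of the 9 genes, and Adnp2 and Chd3 have none. The windows of Adnp, Chd4 and Cbx3 are shown because the first lies partly under an Adnp peak, while the other two hold a word of the GC-rich motif known for ChAHP and no peak. Each is written 5′ to 3′ on the strand of its gene. Capitals mark the 173 bases under the Adnp peak in the first, and the word CGCCCCCT or its reverse complement in the others.
Adnp, chr2:168207063-168207362, minus strand: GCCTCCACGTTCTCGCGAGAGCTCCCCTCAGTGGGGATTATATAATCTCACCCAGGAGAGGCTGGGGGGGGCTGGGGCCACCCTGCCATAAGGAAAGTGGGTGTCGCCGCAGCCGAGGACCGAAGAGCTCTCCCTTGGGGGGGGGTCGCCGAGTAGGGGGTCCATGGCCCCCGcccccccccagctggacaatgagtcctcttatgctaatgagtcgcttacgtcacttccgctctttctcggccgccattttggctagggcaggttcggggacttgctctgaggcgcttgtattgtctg
Chd4, chr6:125095731-125096030, plus strand: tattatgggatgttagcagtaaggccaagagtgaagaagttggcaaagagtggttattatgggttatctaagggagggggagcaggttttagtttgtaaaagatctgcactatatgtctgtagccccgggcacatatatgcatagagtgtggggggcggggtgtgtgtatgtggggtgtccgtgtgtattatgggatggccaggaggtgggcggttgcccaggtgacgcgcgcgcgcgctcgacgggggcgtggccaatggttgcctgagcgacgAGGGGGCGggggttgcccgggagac
Cbx3, chr6:51470366-51470665, plus strand: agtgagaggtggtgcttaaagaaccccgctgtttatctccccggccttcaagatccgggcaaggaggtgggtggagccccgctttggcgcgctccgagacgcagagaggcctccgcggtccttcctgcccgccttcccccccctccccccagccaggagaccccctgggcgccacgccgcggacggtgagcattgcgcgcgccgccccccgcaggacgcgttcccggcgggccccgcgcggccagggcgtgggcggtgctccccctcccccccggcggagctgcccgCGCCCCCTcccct

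Adnp had a peak of its own protein directly before its start site. The peak spanned chr2:168207190-168207484, was 295 bp wide and began 78 bp beyond the annotated gene (168180965 to 168207112, minus strand). Its centre lay 225 bp upstream of the start site. Of the 27025 genes with a promoter window, 1.1% had an Adnp peak in one, and 0.551% had a peak centre nearer to a start site than Adnp did. Of the 7 genes with windows described here, Adnp was the sole one with such a peak. The authors give each Adnp peak a score of unstated kind, which ran from 3.66 to 565 with a median of 21.2 and is used here only to rank peaks within the list. The peak at the Adnp start scored 14.5, and 27.2% of the list scored lower. Among the 297 genes with a peak in a promoter window, the median best score was 19.8, and 90 genes had a lower one than Adnp. The peak at the Adnp start also lay 1.56 kb from an end of the neighbouring gene Dpm1. It overlaps Gm20716, a long noncoding RNA gene that overlaps the Adnp peak inside Dpm1 as well.

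A further pair of Adnp peaks lay within 20 kb of Adnp. One at 168213086 to 168213478 stood 5.97 kb from the gene on its upstream side, inside Dpm1, and scored 18.3. Dpm1 encodes the catalytic subunit of dolichol-phosphate mannose synthase. The other, at 168161014 to 168161303, stood 19.7 kb downstream and scored 9.36, lower than all but 7.57% of the list. All of the 3 peaks scored below the list median. No Adnp peak lay inside the gene.

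Across the 9 genes the list held 18 Adnp peaks inside a gene or within 20 kb of its ends, spread over 6 of the 9 genes, where 43.8% of protein-coding genes had such a peak. Adnp had 3, Chd3 had 2, Cbx1 had 3, Cbx3 had 2, Cbx5 had 4 and Pogz had 4. Chd4, Chd5 and Adnp2 had none. Each of the 18 peaks had at least 1 base in the window counted.

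**Figure D1:**
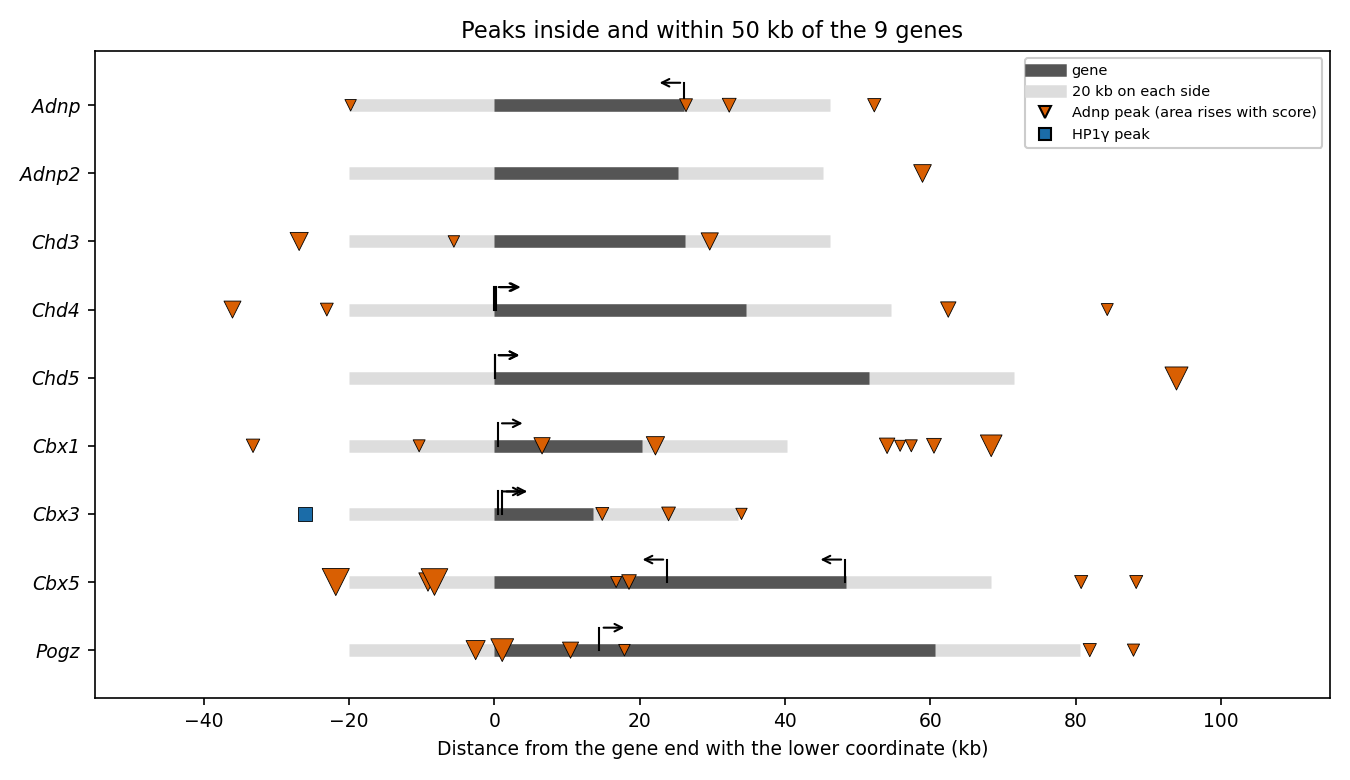
Positions of peaks around the 9 genes, as distance in kb from the gene end with the lower coordinate. Dark bars are genes, light bars the 20 kb on each side, arrows annotated start sites (not drawn for Adnp2 and Chd3), triangles Adnp peaks with an area that rises with the score, and the square an HP1γ peak. One of the triangles at Adnp sits by its start site, Cbx1, Cbx5 and Pogz hold peaks inside the gene, and Chd4, Chd5 and Adnp2 have none within 20 kb.

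The share of genes with an Adnp peak was higher among the 9 genes than among all protein-coding genes at each distance. Inside the gene it was 3 of 9, against 20.7% of protein-coding genes. Within 1 kb of an end it was 2 of 9, against 5.38%. Within 5 kb it was 5 of 9, against 19.3%. Within 20 kb it was 6 of 9, against 41.2%. Of the 9 genes, all but Cbx3 are longer than the protein-coding median of 17.4 kb, and these shares were not adjusted for length. With 9 genes each step is 1 gene, the members were chosen with earlier results of these data known, and no test was made, so nothing particular to them follows. Inside the genes, 6 peaks over 306.5 kb gave 1.96 peaks per 100 kb (95% Poisson interval 0.718 to 4.26, counting error only). All protein-coding genes together had 0.721 peaks per 100 kb, a value within the interval of the 9 genes.

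**Figure D2:**
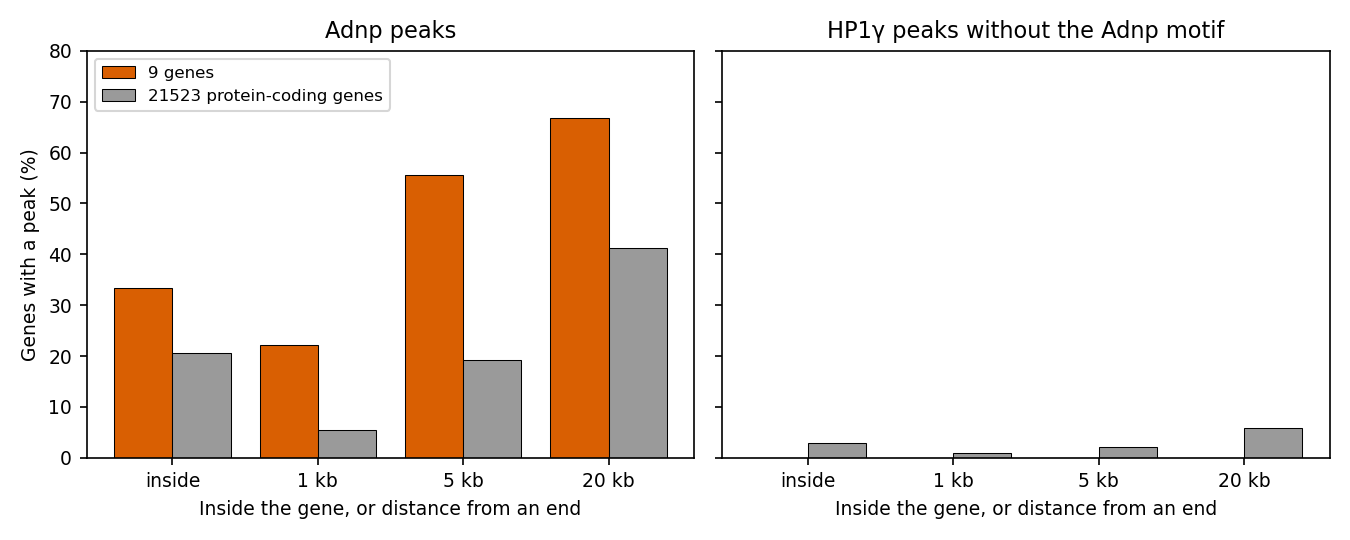
Percentage of genes with a peak inside the gene or within 1, 5 and 20 kb of an end, for the 9 genes (orange) and 21523 protein-coding genes (grey), with Adnp peaks on the left and HP1γ peaks on the right. The bars of the 9 genes for Adnp stand at 33.3%, 22.2%, 55.6% and 66.7%, and those for HP1γ at 0.

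Chd4, the helicase of the complex, had no Adnp peak inside or within 20 kb. The gene lies at chr6:125095980-125130591, and its nearest Adnp peak stood 22.9 kb away at 125072739 to 125073053, inside the lysophosphatidic acid receptor gene Lpar5, with a score of 14.5. On the other side the nearest was 27.7 kb away, inside Iffo1, with a score of 24.8. Of all protein-coding genes, 45.8% had a nearer peak than Chd4. The distance of Chd4 is thus within the ordinary range, since the median gene was 30.6 kb from a peak. The neighbourhood was not empty, with 6 Adnp peaks within 100 kb of Chd4 and a median of 2 over all protein-coding genes.

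The paralogues of Chd4 differed from each other. Chd3 (chr11:69343273-69369499) had a peak at 69372682 to 69373133, 3.18 kb from its upper end and inside the long noncoding RNA gene Gm32483, with a score of 33.3. A weaker one at 69337483 to 69337882 stood 5.39 kb from its lower end and scored 9.54. Chd5 (chr4:152338646-152390194), known from nervous tissue and testis, had its nearest Adnp peak 42.1 kb away inside Kcnab2. That peak scored 67.2, above 93.6% of the list. Chd5 had this 1 peak within 100 kb and Chd3 had 6. A peak was nearer for 54.9% of protein-coding genes than for Chd5, and for 26.6% than for Chd3.

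Adnp2, the paralogue of Adnp at chr18:80126315-80151516, had its nearest Adnp peak 33.0 kb beyond its upper end. The peak at 80184551 to 80185677 was 1127 bp wide and scored 35.6. It was the sole Adnp peak within 100 kb of Adnp2. So Adnp carried a peak of its own protein at its start site, while the nearest peak to Adnp2 was farther away than for 51.2% of protein-coding genes.

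All 3 HP1 genes had Adnp peaks inside or within 20 kb, where 43.8% of protein-coding genes had one. None of those peaks lay in their promoter windows, and 1.1% of all genes with such a window had a peak there. Cbx1 and Cbx5 had peaks inside the gene, and Cbx3 had peaks beyond its far end.

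Cbx1 (chr11:96788680-96808982, plus strand), the gene of HP1β, had an internal peak at 96794868 to 96795595. It was 728 bp wide, scored 28.9, above 68.0% of the list, and its centre lay 6.10 kb downstream of the start site, over the transcribed pseudogene Gm11517. A wider peak of 1241 bp at 96810219 to 96811459 lay 1.24 kb past the downstream end of Cbx1 and scored 38.9. The remaining peak, 10.1 kb upstream, scored 11.3 and lay 348 bp from an end of the sorting nexin gene Snx11. Neither of the 2 higher-scoring peaks is at the start.

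Cbx3 (chr6:51470154-51483704, plus strand), the gene of HP1γ, is the shortest of the 9 and held no peak. The peak nearest to it, at 51484847 to 51485140, lay 1.14 kb past its downstream end and scored 14.7. The next, at 51493944 to 51494295, was 10.2 kb past that end and scored 17.9. The next one stood 20.3 kb away, just outside the 20 kb limit, and scored 9.07. All 3 scored below the list median of 21.2. Cbx1 and Cbx3 thus each had a peak between 1 and 2 kb past the downstream end, both just outside the 1 kb window.

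Cbx5 (chr15:103191546-103239904, minus strand), the gene of HP1α, had the highest score of the 18 peaks. That peak lay 7.71 kb past its downstream end at 103182721 to 103183840, was 1120 bp wide and scored 93.1, above 97.1% of the list. A neighbour at 103182135 to 103182644, separated from it by 76 bp, scored 39.2. Another, 21.6 kb past that end and so just outside the limit, scored 96.5. The 2 internal peaks were weaker. The peak at 103209805 to 103210328 scored 21.5 and lay 5.29 kb downstream of the nearer of the 2 start sites in the table. The peak at 103208014 to 103208585 scored 8.07, the lowest of the 18. Cbx5 thus held both the highest and the lowest score of the 18.

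Cbx3 and Cbx5 each lie next to an hnRNP A gene, whose proteins bind pre-mRNA. The annotated ends of Cbx3 and Hnrnpa2b1 are 105 bp apart, and those of Cbx5 and Hnrnpa1 are 38 bp apart. Neither list had a peak in these shared regions. The nearest Adnp peak centre to a start site was 13.7 kb away for Cbx3 and 5.29 kb away for Cbx5. That start site of Cbx5 is the one at 103215352, inside the gene, and not the one beside Hnrnpa1. The same peak stood 29.6 kb from the nearest end of Hnrnpa1.

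Pogz (chr3:94822989-94883577, plus strand), the longest of the 9, held 3 internal peaks, more than any other of these genes. They lay at 94823676 to 94824437 with a score of 65.5, at 94833268 to 94833649 with a score of 28.1 and at 94840732 to 94841029 with a score of 9.76. A further peak at 94820147 to 94820639, 2.35 kb before the annotated gene, scored 43.3. Inside the gene, scores were highest near its lower end. The start site in the promoter table lies 14.4 kb inside the annotated span. Relative to it, the centres of these peaks lay 17.0, 13.4 and 3.98 kb upstream and 3.44 kb downstream. The strongest peak at Pogz is thus within 1 kb of the annotated gene end but well before that start site. The middle internal peak overlaps the pseudogene Gm15263.

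**Figure D3:**
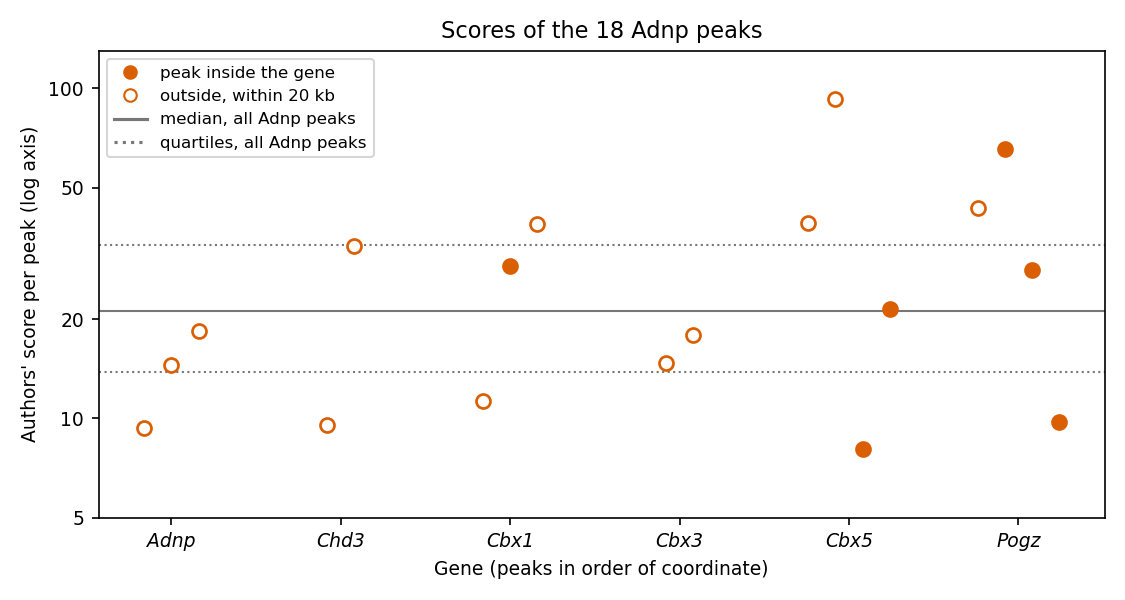
Authors' scores, on a log axis, of the 18 Adnp peaks inside (filled) or within 20 kb (open) of 6 genes, with the median and quartiles of all Adnp peaks as lines. Cbx5 and Pogz reach 93.1 and 65.5, and every peak at Adnp and Cbx3 lies below the median line at 21.2.

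The 18 peaks as a set were ordinary in score. Their median score was 19.9, against 21.2 for the whole list. Of them, 9 scored above the list median, 5 above its upper quartile and 5 below its lower quartile. The 5 above the upper quartile lay at Cbx5, Pogz and Cbx1. Their widths ran from 290 to 1241 bp with a median of 472.5 bp, against 396 bp for the list. Strand was known for 16 of them, of which 4 lay upstream of the annotated gene, 6 inside and 6 downstream. Taken from the nearest start site of the gene, 6 of the 16 centres lay upstream. A single centre, at Adnp, was within 1 kb of a start site. Such positions were not counted over the whole list.

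Adnp peaks were dense around some of these genes and sparse around others. Cbx1 had 14 inside or within 100 kb, a count above that of 98.1% of protein-coding genes. Cbx5 had 12, above 96.3%, and Pogz had 8, above 87.5%. Adnp, Chd3, Chd4 and Cbx3 had 6 each, above 78.7%. Adnp2 and Chd5 had 1 each, below the median of 2. The counts take in the length of the gene, which is 13.6 kb for Cbx3 and 60.6 kb for Pogz, both short beside the 100 kb on each side. Gene density around each gene was not compared, and its part in these counts was not tested.

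HP1γ peaks without the Adnp motif were absent from all 9 genes and from the 20 kb around them. Among protein-coding genes, 2.86% had such a peak inside, 0.855% within 1 kb of an end, 2.04% within 5 kb and 5.88% within 20 kb (6.83% with the inside counted as well), and 0.418% of genes with a promoter window had a peak in one. At such shares, 0 of 9 genes does not stand apart from the background. The 18 Adnp peaks were taken from this same span around the genes. None of them could therefore overlap an HP1γ peak, and that is no separate result. By its title the list leaves out peaks with the Adnp motif, so HP1γ at motif sites of these genes cannot be read from it. Its peaks are named after Adnp knockout cells, although the design text assigns the list to both genotypes, and the genotype behind each peak is not known.

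The nearest HP1γ peak was closest for Cbx3, the gene of HP1γ itself. It spanned chr6:51443909-51444282 and stood 25.9 kb upstream of Cbx3, inside the transcription factor gene Nfe2l3. A nearer HP1γ peak was found for 7.89% of protein-coding genes. For Pogz the distance was 73.8 kb, for Chd5 113 kb and for Chd4 122 kb. Adnp followed at 252 kb, Chd3 at 785 kb and Cbx1 at 794 kb. Cbx5 at 1198 kb and Adnp2 at 2629 kb were the farthest. The median was 252 kb over the 9 genes and 422 kb over all protein-coding genes.

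**Figure D4:**
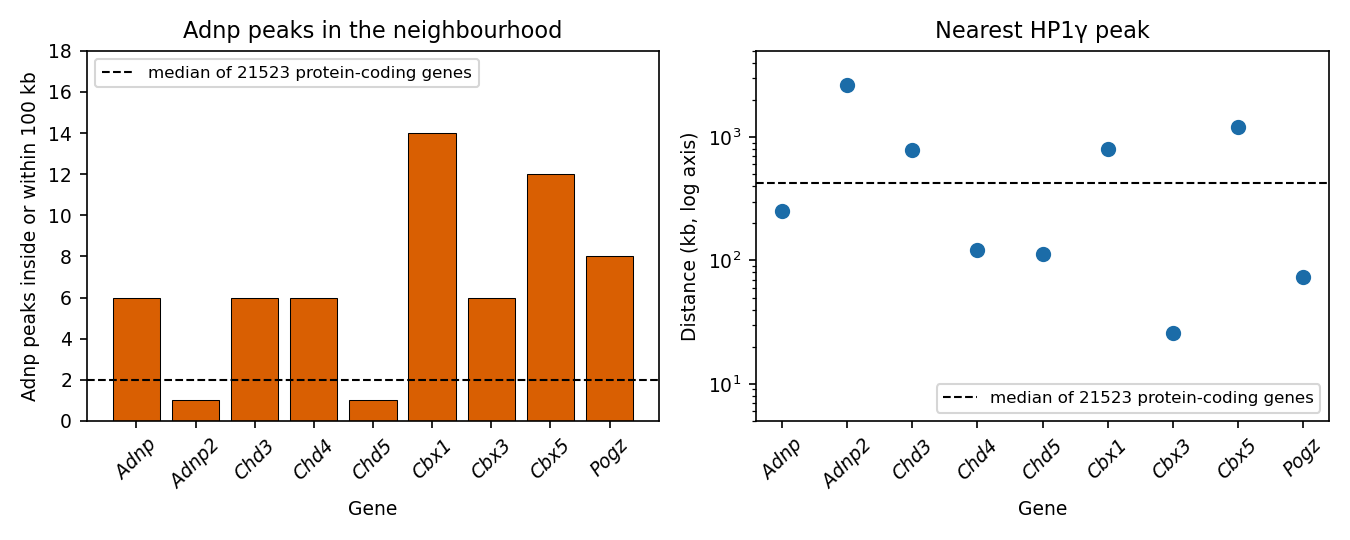
Number of Adnp peaks inside or within 100 kb of each gene (left) and distance in kb, on a log axis, to the nearest HP1γ peak (right), with dashed lines at the medians of 21523 protein-coding genes. Cbx1 and Cbx5 stand highest with 14 and 12 Adnp peaks, Adnp2 and Chd5 have 1, and the nearest HP1γ peak is 25.9 kb from Cbx3 and 2629 kb from Adnp2.

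All 11 promoter windows of these genes, and all windows of the table, were searched for words on both strands. CGCCCCCT occurred in the windows of Chd4 and Cbx3 and in 6.07% of the 32851 windows of the table. CGCCCTCT, the other spelling of the start of the motif, occurred in none of the 11 windows and in 3.04% of the table. Of the 320 windows with an Adnp peak, 17.8% held CGCCCCCT and 7.5% held CGCCCTCT. The site in Chd4 lies at 125096006 to 125096013, in both of its overlapping windows, and the site in Cbx3 at 51470653 to 51470660. The 2 genes with the word had no peak in the window, and the window of Adnp, with a peak, had neither word. Over the table, 57 of the 1994 windows with CGCCCCCT had an Adnp peak. Most windows with a peak also lacked each word, so neither case sets these genes apart. Of the 295 bp of the Adnp peak, 173 lie in the window, and the rest was not searched. GGGCGG, the usual word for Sp1, was found in windows of all 7 genes, in 35.7% of the table and in 55% of the windows with an Adnp peak. It shares 5 bases with the CGCCCCCT site of Chd4, and 3 bases of its site in Adnp lie under the peak. A word in a window is a description and no binding site.

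The 11 windows ran from 50% to 75.3% in GC content, with 52.7% as the median of the table and 61% as the median of windows with an Adnp peak. The Adnp window stood at 62.7%. The first Cbx3 window was richest at 75.3%, above 96.4% of the table. The ratio of observed to expected CpG ran from 0.358 in the second Cbx5 window to 1.09 in the first, and was 0.578 in Adnp, with a table median of 0.384. The windows without a peak thus lay both above and below the Adnp window in GC content, from 50% at Pogz to 75.3% at Cbx3. Adnp is the single window here with a peak.

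Relatives and partners of these genes were set beside them with the same counts. Of 12 genes of the NuRD complex besides Chd4, 6 had an Adnp peak inside and 6 within 5 kb of an end, where all protein-coding genes gave 20.7% and 19.3%. Gatad2a and Gatad2b, zinc finger subunits, had top scores of 116 and 95.9. Mta3 held 6 peaks inside, with a top score of 43.0, and Mta1, Rbbp7, Mbd3 and Mbd2 reached 40.7, 39.8, 30.4 and 23.7. Of 12 HP1 partner and H3K9 methylation genes, 4 had a peak inside and 3 within 5 kb. Lbr, an HP1-binding protein of the nuclear envelope, and Atrx, a chromatin remodeller, held 4 each, with top scores of 21.9 and 18.3. Incenp, Ehmt2 and Setdb1 reached 41.0, 30.4 and 19.2. Of 6 other Chd helicase genes, 2 had a peak inside and 2 within 5 kb, with top scores of 74.0 at Chd2, 24.2 at Chd8 and 21.4 at Chd9. Of 5 Cbx genes of Polycomb complexes, 1 had a peak inside and 2 within 5 kb, with 34.6 at Cbx7 and 27.3 at Cbx2. Over all 35 genes, 13 (inside) and 13 (within 5 kb) had an Adnp peak, beside 3 and 5 of the 9 genes and 20.7% and 19.3% of protein-coding genes. No test was made between these lists, and the counts were not adjusted for gene length. Hdac2, Mbd3, Incenp and Chd2 each had 1 HP1γ peak inside or within 5 kb. Over the 35 genes, 2 had one inside and 4 within 5 kb, where all protein-coding genes gave 2.86% and 2.04%.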

How the data were processed

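Per the labels' protocols, chromatin from 10000000 crosslinked cells was sonicated to about 300 bp for each ChIP, and 1% of it served as input. Per the submitters' processing notes, MACS2, edgeR, Bowtie 1.0.0, STAR 2.5.0a and bcl2fastq 1.17 were used with build mm10 (GRCm38), and their roles and settings are not given in those notes. The deposited values are 2 peak lists pooled by the authors, with a start, an end and a score per peak as deposited. The score is 0 for every HP1γ peak. Peak names run to 31188 and 2701, above the numbers listed, so both lists are subsets.

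Starts were counted from 1. Genes came from a RefSeq table of GRCm38.p6, on chromosomes 1 to 19 and X from 3 Mb on. A peak counted if 1 bp lay in a gene or within 1, 5 or 20 kb of either end, on either side of it. Densities have exact 95% Poisson intervals, which cover counting error only. The members and gene lists were chosen with earlier results of these data known, and no statistical test was made. Named genes were the members, the other genes that hold or border a member's peak, and listed relatives with a peak inside or within 5 kb; not every bordering gene is printed. Motif words were chosen after the data were seen. Peak counts per window equalled those of a direct search on simulated data. Figures used matplotlib 3.10.9, and computations used pandas 2.3.3, SciPy 1.17.1, NumPy 2.4.6 and Python 3.11.15.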

Additional observations from a re-analysis of the deposited data

How the results depend on the processing

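No paired analysis was possible because each list is pooled over its replicates, which also leaves no replicate to leave out. The alternatives were peak centres, peaks within 1 kb joined, a window of 10 kb, Adnp peaks scoring above the list median, all annotated genes as background, genes with 5 kb added, and stricter or looser overlap of the lists. With peak centres, the count of genes with a peak within 1 kb was 1 in place of 2, since the centre of the Pogz peak lies just beyond that limit. With peaks above the median score, 1 gene had a peak within 1 kb (Pogz, so the peak at the Adnp start is lost), 3 within 5 kb in place of 5, and 9 peaks remained of 18. Shares of all protein-coding genes were not computed for peak centres or for the higher-scoring peaks. Those counts of genes thus have no background beside them. With all annotated genes as background, 11.7% had an Adnp peak inside and 1.65% an HP1γ peak inside. The other 42 values stayed within 1.5 times the main count or within its interval, which is a loose check. With 5 kb added, densities rose from 0 to 2.77 per 100 kb at Adnp, 2.76 at Chd3 and 4.25 at Cbx3. The intervals of genes with no internal peak are so wide that these values stayed within them. Genes with a peak within 20 kb fell from 6 to 4 with the higher-scoring peaks, a change at the 1.5 limit. The counts for HP1γ stayed at 0 in each alternative run for them. Read depth is unknown, so a missing peak is no measure of absent binding.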

Other observations

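A pair of paralogues near the HP1 genes, Copz2 near Cbx1 and Copz1 near Cbx5, each had an Adnp peak close to an end and another inside. They encode ζ subunits of the COPI vesicle coat. A peak at chr11:96848994-96849384 lay 492 bp from an end of Copz2 and scored 22.4, and another inside Copz2 at 96856833 to 96857307 scored 58.4. A peak at chr15:103272074-103272569 lay 319 bp from an end of Copz1 and scored 15.2, and another inside Copz1 at 103279721 to 103280076 scored 15.1. Smug1, a DNA repair glycosylase gene on the other side of Cbx5, had a peak 458 bp from an end with a score of 96.5. These neighbours were picked from the peaks within 50 kb after their positions were seen, and no test was made.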
